A study of Arabidopsis thaliana with 30 samples.

Results

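The 200 rows described here are transcripts whose levels in cut wild-type hypocotyls rose to a maximum at 3 h and were back near their starting level at 24 h. They were chosen by their values in the Col-0 wild type (WT) alone. Counts were scaled by the library total to CPM, and the level at a time was log2 of 1 plus the mean CPM of 3 libraries. A row qualified with a WT level of at least 1 at 0 h, its highest WT level at 3 h, a rise to 3 h of at least 1.5 on the log2 scale, and a level at 24 h within 1 of that at 0 h. Of the 36635 rows of the count table, 269 met these conditions, and the 200 with the largest rise were kept. The rows carry no gene identifier, so none can be given a name, a function or a sequence. Rows are called by their rank, from 1 for the largest WT rise to 200, and 4 also by their position in the table.

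RNA was sequenced from hypocotyl explants of dark-grown Arabidopsis thaliana seedlings, 7 days old, that had been wounded by cutting. The groups were the hsfa1abd-2 mutant and the WT, both in the Col-0 ecotype, each at 0, 0.5, 1, 3 and 24 h. Each of these 10 groups had 3 biological replicates of about 50 explants. The 0 h explants also carry the wounding label and no uncut tissue was analysed here, so time of day, and at 24 h tissue age, cannot be told apart from the effect of cutting. The mutant's name refers to HSFA1A, HSFA1B and HSFA1D, and no source used here gives its alleles. Without identifiers, neither these genes nor markers of the hypocotyl could be checked.

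HSFA1 proteins are class A heat shock factors, transcription factors that bind heat shock elements and start the heat response in Arabidopsis. Cutting sets off waves of transcription in plant tissue, among them stress, hormone and defence genes, and cells at the wound can later re-enter division. A transcript that rises and falls again within a day reports on both its synthesis and its decay. The comparison here asks whether the pulse seen in WT also ran in the mutant, whose libraries had no part in the choice of rows.

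Libraries held 3164714 to 4296509 counts, apart from WT 0.5 h replicate 1 with 578179, where 3 counts correspond to 5.19 CPM. In that library 10 of the 200 rows had no count, against 0 to 3 in the others. Choosing the rows without it kept 199 of the 200. All 200 rows passed the filter on low counts, which left 18526 tested rows. A row could pass through the WT 3 h group, where the choice made it high.

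The pulse was present in the mutant. The 200 rows together held 0.740%, 0.667% and 0.669% of all counts in the 3 hsfa1abd-2 libraries at 0 h, and 0.713%, 0.701% and 0.657% in the WT libraries. At 3 h they held 3.37%, 3.13% and 3.73% in hsfa1abd-2 and 3.71%, 3.58% and 3.89% in WT. By 24 h the share was 0.876% ± 0.0264 in hsfa1abd-2 and 0.929% ± 0.0273 in WT (SD, n = 3 each). At 3 h the libraries of the genotypes overlapped, and in both genotypes each 3 h library lay above every library of any other time. The 5 most abundant rows of a library held 21.6% to 36.6% of this sum. Explants are whole tissue, so more cells of a type and more RNA per cell cannot be told apart.

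**Figure D1:**
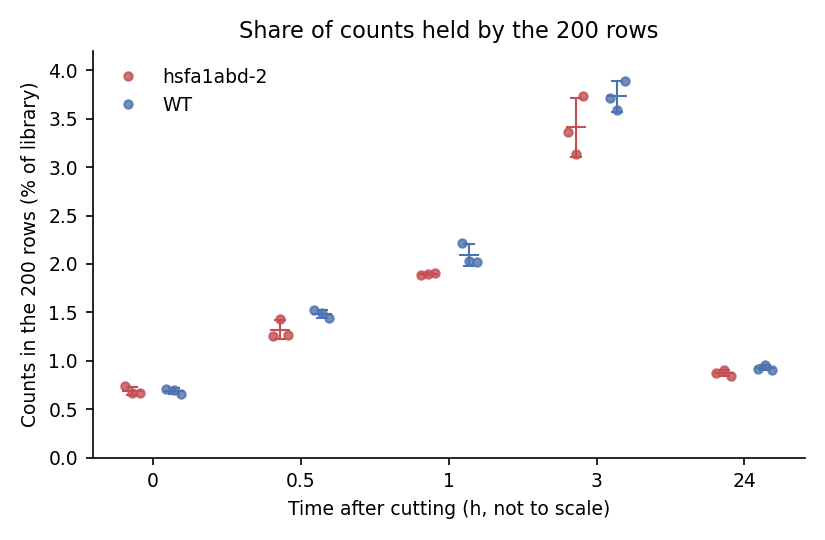
Percent of each library's counts that fell in the 200 rows (vertical axis, linear from 0) at 5 times after cutting (horizontal axis, not to scale). Points are libraries, with hsfa1abd-2 left of WT, and bars are the mean ± SD of 3. Both genotypes peak at 3 h, with 3.13% to 3.73% in hsfa1abd-2 and 3.58% to 3.89% in WT.

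Within the mutant, 194 of the 200 rows were called higher at 3 h than at 0 h by the edgeR quasi-likelihood test, with p-values adjusted by Benjamini-Hochberg over all 18526 tested rows. Over all tested rows 24% were called higher in this comparison. Of the 194, 193 were at least 2-fold higher. The median log2 fold of the 200 rows was 2.48, against -0.00443 over all tested rows. None was called lower, and none was lower at an unadjusted p under 0.05 or by DESeq2, against 18.6% called lower over all tested rows. In 191 rows every mutant library at 3 h lay above every mutant library at 0 h in CPM, a separation seen in 20.1% of the tested rows.

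The return was as common. Between 3 h and 24 h, 187 of the 200 rows were lower at 24 h in the mutant, against 28.0% of all tested rows, with a median log2 fold of -2.15. None was called higher (24.9% over all tested rows), also at an unadjusted p under 0.05 and by DESeq2. All 187 were among the 194 that had risen, so a called rise and a called return came together in 187 rows, against 16.2% of tested rows. Compared directly between 24 h and 0 h, 73 rows were higher in the mutant and 11 were lower, and 116 were not called. These shares of the 200, 36.5% and 5.5%, stand beside 26.6% higher and 21.3% lower over all tested rows. The 73 became 59 with no filter, and 58 to 67 with 1 hsfa1abd-2 library of 0 h or 24 h left out. The share over all tested rows was not taken in those fits.

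The steps up to the peak were also seen in the mutant. At 0.5 h 104 rows were higher than at 0 h (14.6% of all tested rows) and 5 were lower (8.3%). The 5 became 3 without hsfa1abd-2 0 h replicate 3 or 0.5 h replicate 1. At 1 h 164 rows were higher (20% of all tested rows), with a median log2 fold of 1.5. The 2 rows called lower at 1 h (15.1% of all tested rows) became 0 without hsfa1abd-2 0 h replicate 1, and 1 without 0 h replicate 3 or 1 h replicate 1 or 2. Of the 194 rows higher at 3 h, 103 were already called at 0.5 h, a further 65 were first called at 1 h, and 26 were called only at 3 h. From 1 h to 3 h, 155 rows rose further, against 12.8% of all tested rows, and the other 45 were not called higher in that step. The 1 row lower in it (10.1% of all tested rows) was not called without any 1 of the 1 h libraries, or without 3 h replicate 1 or 3.

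**Figure D2:**
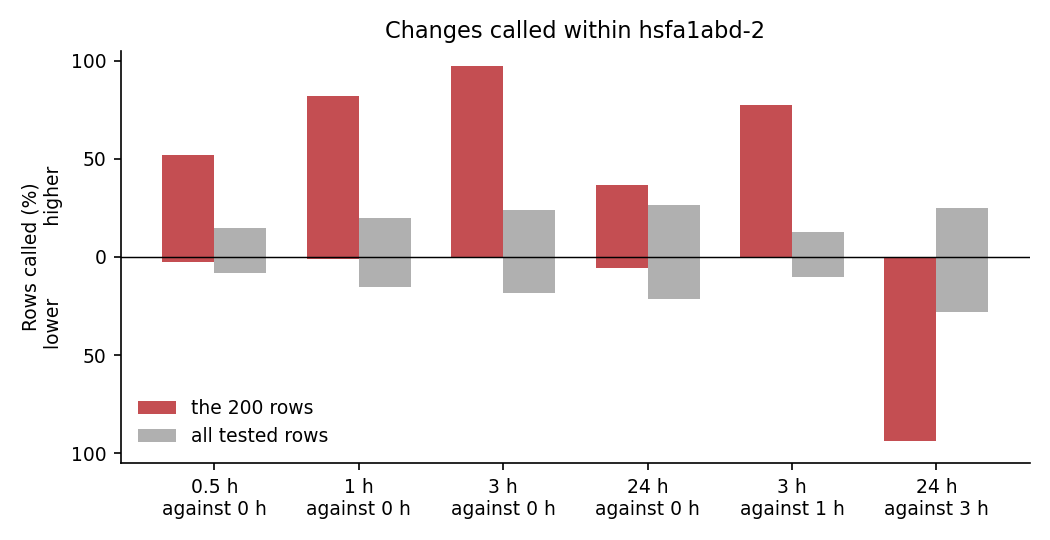
Percent of rows called higher (upward bars) or lower (downward bars) by edgeR at an adjusted p under 0.05 in 6 comparisons within hsfa1abd-2, for the 200 rows (red) and for all 18526 tested rows (grey). The 200 rows reach 97% higher at 3 h against 0 h and 93.5% lower at 24 h against 3 h, beside 24% and 28.0% of all tested rows.

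The conditions that chose the rows in WT were then read in the mutant's CPM means. The highest mutant level fell at 3 h in 181 of the 200 rows, at 1 h in 13, at 0.5 h in 3 and at 24 h in 3. Among the 18634 rows with a mutant level of at least 1 at 0 h, 14.6% had their highest level at 3 h. In the 13 rows highest at 1 h, that level exceeded the 3 h level by 0.0859 to 0.660 on the log2 scale. Only 1 of the 13 was called lower at 3 h than at 1 h, against 10.1% of all tested rows. At 3 h 11 of the 13 were still called higher than at 0 h, against 24% of all tested rows. A rise to 3 h of at least 1.5 was met by 173 of the 200 rows (5.69% of the 18634) and a level at 24 h within 1 of the start by 175 (81.4%). All conditions held in 143 of the 200 rows, against 1.88% of the 18634. Applied to the mutant on its own, the conditions gave 351 rows. These shared 173 rows with the 269 of WT, which are 64.3% of the WT list and 49.3% of the mutant list.

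Sizes of the rise were close in most rows. On the log2(CPM + 1) scale the median rise to 3 h over the 200 rows was 2.21 in hsfa1abd-2 and 2.34 in WT. The rises differed by at most 0.5 in 146 rows. The rise was the smaller one in the mutant in 131 rows, a direction that choosing rows by a large WT rise favours, so no test is given for it. Across the 200 rows the rises of the genotypes had a Pearson r of 0.742 and a Spearman rho of 0.721, as a description. The rows are not independent and their WT range was cut by the choice. Scaling by library total shifted all changes down, and the median change over all rows expressed at 0 h was -0.205 in hsfa1abd-2 and -0.249 in WT at 3 h. With TMM scaling these medians were -0.0345 and -0.0392, and the median rises of the 200 rows were 2.38 in hsfa1abd-2 and 2.57 in WT.

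**Figure D3:**
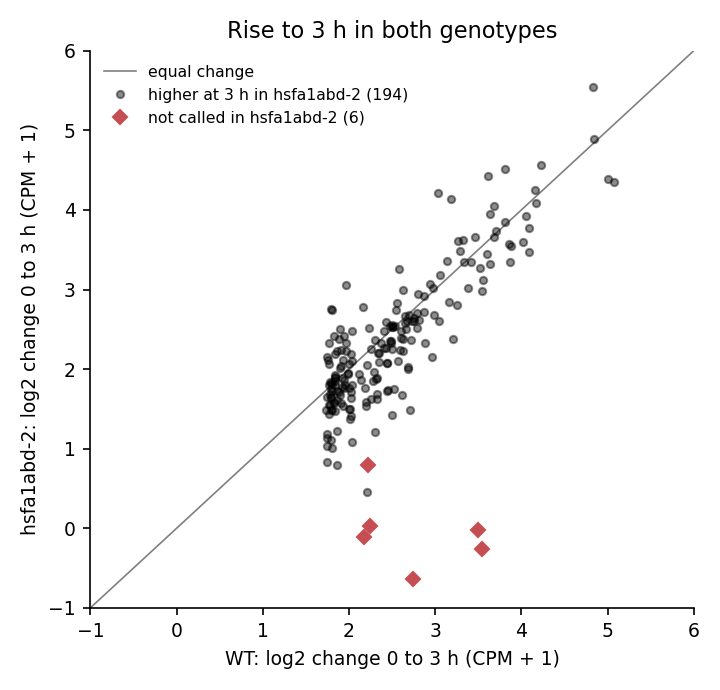
Log2 change of CPM + 1 between 0 and 3 h in hsfa1abd-2 (vertical) and in WT (horizontal), 1 point per row, with the line of equal change. Of the 200 rows, 194 (circles) were called higher at 3 h in hsfa1abd-2. The other 6 (diamonds) lie between -0.638 and 0.789 in hsfa1abd-2, against 2.17 to 3.55 in WT.

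The 3 rows with the largest WT rises were also called higher at 3 h in the mutant. Rank 1 had 406, 307 and 300 CPM in the hsfa1abd-2 libraries at 3 h and 321, 295 and 349 CPM in WT. At 0 h it had 9.89, 20.4 and 16.4 CPM in hsfa1abd-2 and 10.5, 5.75 and 9.53 CPM in WT. The genotypes overlapped at 3 h and no 3 h library came near those of 0 h. Its log2 fold from 0 to 3 h in the mutant was 4.64 (approximate SE 0.20, edgeR adjusted p = 2.09e-17), and by 24 h it stood at 13.2 ± 1.89 CPM in hsfa1abd-2 and 9.64 ± 2.56 CPM in WT (SD, n = 3 each). Rank 2 reached 128 ± 23.7 CPM in hsfa1abd-2 and 157 ± 18.5 CPM in WT at 3 h, against 5.18 ± 1.48 CPM in hsfa1abd-2 and 3.93 ± 1.15 CPM in WT at 0 h (SD, n = 3 each). Rank 3 reached 89.9 ± 28.3 CPM in hsfa1abd-2 and 107 ± 19.6 CPM in WT at 3 h (SD, n = 3 each), and its level at 1 h was still 6.84 ± 3.18 CPM in hsfa1abd-2 and 9.85 ± 1.5 CPM in WT.

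At the other end of the list, the last 3 rows kept changed to 3 h by 1.18, 1.03 and 1.48 in hsfa1abd-2 and by 1.74 each in WT, on the log2(CPM + 1) scale. The first 3 left out changed by 1.11, 1.69 and 1.98 in hsfa1abd-2 and by 1.72, 1.71 and 1.71 in WT. Levels spanned a wide range. The row means at 3 h ran from 0.958 to 2388 CPM in hsfa1abd-2 and from 6.19 to 2477 CPM in WT, with medians of 62.8 CPM in hsfa1abd-2 and 73.9 CPM in WT. Of the 50 rows with the lowest WT level at 0 h, 49 were called higher at 3 h in the mutant (24% of all tested rows). Of the 50 with the highest level it was also 49. At 0.5 h these counts were 18 and 35 (14.6% of all tested rows). The lowest 50 had 1.06 to 4.10 CPM in WT at 0 h and the highest 50 had 32.5 to 603 CPM. Few counts make a call harder to reach, so no difference in timing is read from 18 and 35. Replicates of a row at 3 h had a median coefficient of variation of 23.4% in hsfa1abd-2 and 13.4% in WT.

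The rows differed in how much of their rise had come by 1 h. By WT values, 114 rows had gained at least 0.5 of their log2 rise by 1 h and are called early, and 86 had gained less and are called late. In hsfa1abd-2 the median change at 1 h was 1.51 in early rows and 0.557 in late rows. At 3 h it was 2.23 in early rows and 2.17 in late rows. Of the 114 early rows, 108 were called higher at 1 h in the mutant, and of the 86 late rows 56, against 20% of all tested rows. Between 1 and 3 h, 72 early rows and 83 late rows were called higher in the mutant, against 12.8% of all tested rows. Among rows with a mutant rise of at least 1, 95 of 108 early rows and 73 of 83 late rows fell into the same class by the mutant's own values. In the median, early rows had 68.3% of their mutant rise by 1 h and late rows 31%. The classes were read out in libraries that did not define them, and the difference between them was not tested.

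**Figure D4:**
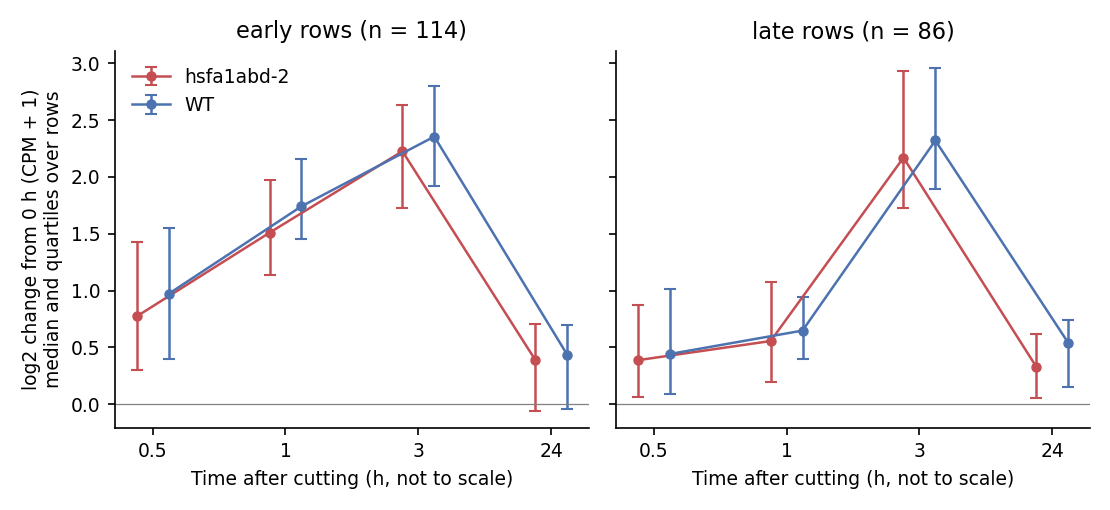
Median and quartiles over rows of the log2 change of CPM + 1 from 0 h (vertical) at 4 times (horizontal, not to scale), for the 114 early rows (left) and 86 late rows (right), with hsfa1abd-2 drawn left of WT. At 1 h the medians in hsfa1abd-2 are 1.51 for early and 0.557 for late rows, and at 3 h 2.23 and 2.17.

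A few rows fell before they rose. In 4 rows, ranks 102, 111, 114 and 125, the WT level at 0.5 h was at least 1 below that at 0 h on the log2 scale. All 4 were called lower at 0.5 h in the mutant as well, against 8.3% of all tested rows. Their log2 folds were -2.24 to -3.41 (edgeR adjusted p = 0.000472 to 0.0256). The call of rank 111 was lost without hsfa1abd-2 0 h replicate 2 or 3 (adjusted p = 0.0949 and 0.0558) or 0.5 h replicate 1 or 2 (0.0833 and 0.103). The 4 are among the 5 rows called lower there. Rank 125 had 2.66, 0.625 and 4.55 CPM at 0.5 h in hsfa1abd-2, against 23.4, 41.9 and 28.7 CPM at 0 h. In WT it had 0, 0 and 2.08 CPM at 0.5 h, against 13.0, 3.83 and 12.4 CPM at 0 h. In the mutant no library at 0.5 h reached any at 0 h. In WT 1 of the zeros is from the shallow library, whose 3-count floor of 5.19 CPM lies above the lowest 0 h value. At 3 h it stood at 67.7 ± 29.4 CPM in hsfa1abd-2 and 43.1 ± 15 CPM in WT (SD, n = 3 each). These 4 rows also varied together between replicates. In 6 of the 10 groups the same library was highest in all 4, which was not counted for other sets of rows. Their 4 calls are therefore not independent of each other. Whether they share reads as near-identical copies is not stated in the sources used here and was not tested.

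Of the 200 rows, 6 were not called higher at 3 h in the mutant, at ranks 25, 28, 57, 112, 114 and 120. In 5 of them, all but rank 114, the mutant change lay between -0.638 and 0.0224 on the log2(CPM + 1) scale, and the WT change, which chose the rows, between 2.17 and 3.55. Rank 25, which is row 35696 of the table, had 2.19, 2.07 and 2.03 CPM at 3 h in hsfa1abd-2 and 68.3, 102 and 106 CPM in WT. Its 0 h libraries held 2.65, 3.16 and 2.30 CPM in hsfa1abd-2 and 7.73, 6.02 and 7.15 CPM in WT. In the mutant the 3 h libraries all lay below the 0 h libraries, by a log2 fold of -0.17 (approximate SE 0.49, edgeR adjusted p = 0.81). This rests on 8, 7 and 7 counts at 3 h and 11, 11 and 8 at 0 h, so no fall is read from it. In WT the 3 h libraries all lay far above those of 0 h. The row lay between 0.811 and 3.98 CPM in all 15 hsfa1abd-2 libraries. In WT it had a first high at 0.5 h, with 83.0, 57.8 and 87.6 CPM, a lower level of 36.5 ± 14 CPM at 1 h (SD, n = 3) and another high at 3 h.

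Rank 28, row 17164, had a like course at a lower level. It had 0.823, 1.18 and 0.868 CPM at 3 h in hsfa1abd-2 and 18.4, 27.7 and 38.4 CPM in WT, and at 0 h 0.964, 1.15 and 0.861 CPM in hsfa1abd-2 and 1.54, 1.64 and 1.59 CPM in WT. At 0.5 h it stood at 1.76 ± 0.810 CPM in hsfa1abd-2 and 20.1 ± 9.94 CPM in WT, and at 1 h at 1.38 ± 0.828 CPM in hsfa1abd-2 and 11.3 ± 4.56 CPM in WT (SD, n = 3 each). The mutant libraries of both times overlapped, with a log2 fold from 0 to 3 h of 0.13 (approximate SE 0.74, edgeR adjusted p = 0.903). Its mutant counts were 2 to 9 per library, so a change of the size of that error was not detectable at this depth.

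The other 4 rows had higher mutant levels. Rank 57 had 8.88 ± 0.514 CPM at 3 h and 14.4 ± 3.26 CPM at 0 h in hsfa1abd-2, against 104.5 ± 25 CPM at 3 h and 14.7 ± 2.90 CPM at 0 h in WT (SD, n = 3 each). Its starting levels overlapped between the genotypes. Rank 112 started lower in the mutant, with 9.38 ± 0.823 CPM at 0 h in hsfa1abd-2 and 39.9 ± 1.66 CPM in WT, and at 3 h it had 9.55 ± 2.17 CPM in hsfa1abd-2 and 193 ± 16.2 CPM in WT (SD, n = 3 each). It was called higher in the mutant at 0.5 h only, with 15.1 ± 3.18 CPM there (log2 fold 0.81, approximate SE 0.19, edgeR adjusted p = 0.00139). Rank 120 had 3.41 ± 0.844 CPM at 3 h in hsfa1abd-2 and 26.9 ± 8.10 CPM in WT (SD, n = 3 each). Rank 114, which also belongs to the rows that fell first, had 54.6, 65.1 and 21.7 CPM at 3 h and 21.7, 41.6 and 17.2 CPM at 0 h in hsfa1abd-2, so its libraries overlapped (log2 fold 1.00, approximate SE 0.51, edgeR adjusted p = 0.12). Its highest mutant level came at 24 h, with 30.7, 83.7 and 72.7 CPM in hsfa1abd-2 and 12.8, 3.59 and 9.03 CPM in WT.

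How far the change to 3 h differed between the genotypes was fitted as an interaction in the same edgeR model. The WT values in it chose the rows, so its values are a description and nothing is read from its counts. It called 7 of the 200 rows, all with the smaller change in the mutant, against 0.221% of all tested rows in that direction. None was called with a larger change in the mutant (0.259% of all tested rows), 5 were at an unadjusted p under 0.05, and DESeq2 also called none. The 7 were ranks 25, 28, 57, 112, 116, 120 and 161. Of these, ranks 116 and 161 were called higher at 3 h in the mutant too. Rank 116 had 332, 366.5 and 362.5 CPM at 3 h and 249.5, 271 and 253 CPM at 0 h in hsfa1abd-2, against 1433, 1573 and 1795 CPM at 3 h and 358, 318 and 359 CPM at 0 h in WT. Its libraries did not overlap between times in either genotype, with a mutant log2 fold of 0.64 (approximate SE 0.11, edgeR adjusted p = 1.68e-05). Rank 161 reached 47.0 ± 1.87 CPM at 3 h in hsfa1abd-2 and 120.5 ± 19.7 CPM in WT (SD, n = 3 each).

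The 2 rows with the most negative and the 2 with the most positive difference, among rows of at least 5 CPM at 3 h in either genotype, were rows 17164, 35696, 28626 and 22780. The log2 difference in change, hsfa1abd-2 minus WT, was -4.22 for row 17164 (approximate SE 0.93) and -4.13 for row 35696 (approximate SE 0.57). Row 17164 passed the filter on low counts through the WT libraries and was not tested in a fit of the 15 hsfa1abd-2 libraries alone. Its call by edgeR was lost without WT 0 h replicate 2 or 3 (adjusted p = 0.0725 and 0.0609), without hsfa1abd-2 0 h replicate 1, 2 or 3 (0.0949, 0.142 and 0.0763) and without hsfa1abd-2 3 h replicate 1 or 2 (0.0517 and 0.0511). Row 22780, rank 176, started lower in the mutant, with 0.723, 0.574 and 0.574 CPM at 0 h in hsfa1abd-2 and 1.85, 2.74 and 1.06 CPM in WT, from 2 to 10 counts per library. At 3 h it had 10.1, 7.10 and 12.4 CPM in hsfa1abd-2 and 8.51, 6.52 and 12.1 CPM in WT, which overlapped, and its log2 difference was 1.62 (approximate SE 0.72).

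Row 28626, rank 191, had no count in the 6 hsfa1abd-2 libraries at 0 and 0.5 h, and 2 to 7 counts in the WT libraries at 0 h. At 1 h it had 3.16, 6.20 and 6.10 CPM in hsfa1abd-2 and 4.23, 3.82 and 2.58 CPM in WT. The mutant level was then 4.03 ± 0.899 CPM at 3 h and 3.54 ± 0.328 CPM at 24 h, and the WT level 6.19 ± 0.503 CPM at 3 h and 1.33 ± 0.309 CPM at 24 h (SD, n = 3 each). In the mutant the 3 h level was at least 4.94-fold higher than at 0 h, against 3 counts per library. It was the only row of the 200 with no count in any mutant 0 h library, and with it at this bound the median log2 fold of the 200 rows was 2.47. Its mutant libraries at 24 h lay between 3.17 and 3.79 CPM, above the WT libraries of 1.02 to 1.64 CPM.

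**Figure D5:**
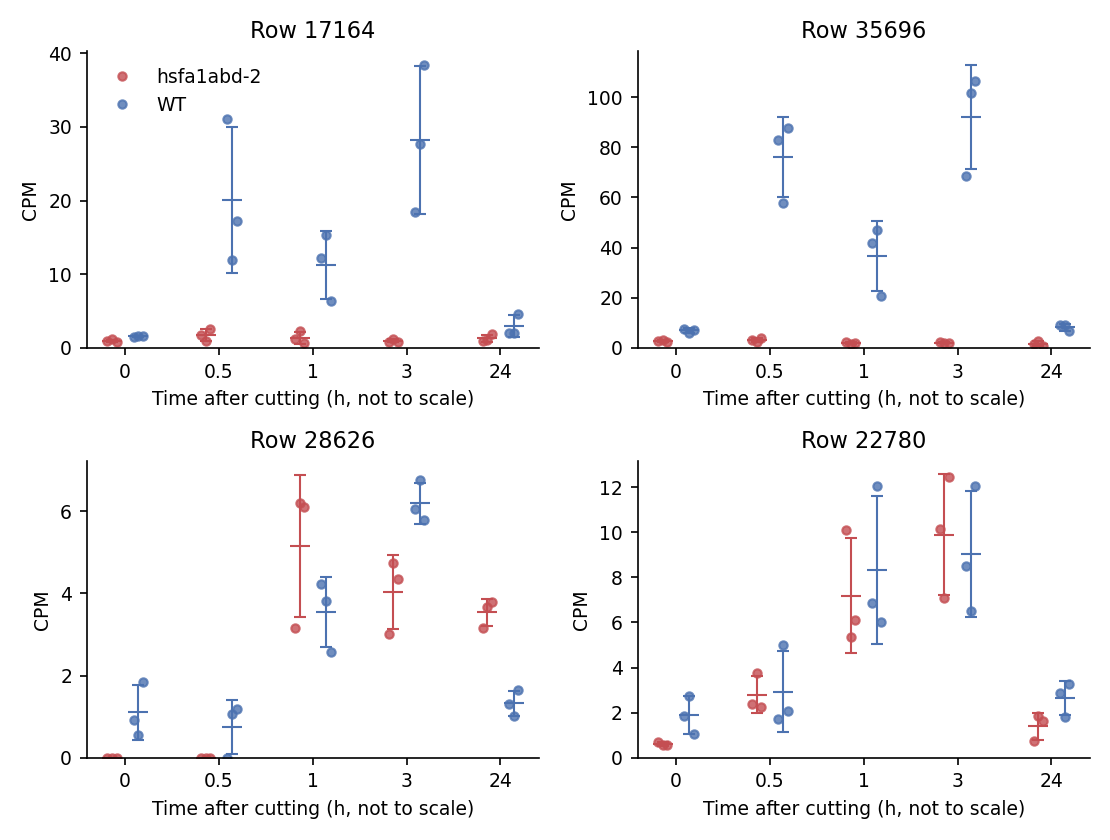
CPM (vertical, linear from 0) of rows 17164, 35696, 28626 and 22780 in every library at 5 times after cutting (horizontal, not to scale), with hsfa1abd-2 left of WT and bars for the mean ± SD of 3 libraries. Rows 17164 and 35696 stay at or below 3.98 CPM in all hsfa1abd-2 libraries and reach 38.4 and 106 CPM in WT at 3 h.

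Rows whose WT level was lower at 1 h than at 0.5 h were not all flat in the mutant. In 26 of the 200 rows the WT level at 0.5 h exceeded that at 1 h by at least 0.5 on the log2 scale, a class set after the values were seen. The class asks for no rise from 0 h to 0.5 h, so its rows need not have had an early high. Of these 26, 23 were called higher at 3 h in the mutant and 3 were not, against 24% called higher over all tested rows. The same excess of 0.5 h over 1 h was present in the mutant in 13 of the 26, a share not taken over all expressed rows. The median change of the 26 at 0.5 h was 0.930 in hsfa1abd-2 and 1.61 in WT. At 3 h it was 2.50 in hsfa1abd-2 and 2.66 in WT. The 26 were chosen by their WT levels at 0.5 h and 1 h. That choice favours a larger WT change at 0.5 h and an excess missing in the mutant, so no difference between genotypes is read from these values.

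At 24 h the rows had been chosen to lie near their start in WT. In the mutant 175 of the 200 lay within 1 of it, a share of 87.5% near the 81.4% of all expressed rows. The mutant level at 24 h was more than 1 above the start in 19 of the 200 rows (8.27% of the 18634 expressed rows) and more than 1 below it in 6 (10.3%). Apart from row 28626, the largest excess on that log2(CPM + 1) scale was in rank 22, with 6.34, 7.34 and 7.03 CPM at 24 h in hsfa1abd-2 and 2.10, 0.512 and 2.19 CPM in WT. At 0 h this row had 0.964, 1.15 and 1.72 CPM in hsfa1abd-2 and 1.55, 1.1 and 1.85 CPM in WT. Mutant libraries did not overlap between 24 h and 0 h (log2 fold 2.47, approximate SE 0.64, edgeR adjusted p = 0.00235). The lowest on the log2(CPM + 1) scale was rank 39, with 18.8, 19.7 and 36 CPM at 24 h and 91.9, 74.9 and 68.6 CPM at 0 h in hsfa1abd-2 (log2 fold -1.62, approximate SE 0.24, edgeR adjusted p = 2.48e-06). Its WT level was 25 ± 5.97 CPM at 24 h and 48.2 ± 12.5 CPM at 0 h (SD, n = 3 each).

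Set side by side at 3 h, the median log2 fold of hsfa1abd-2 over WT across the 200 rows was -0.18, and 140 of the 200 were lower in the mutant, against 52.0% of all tested rows. Single libraries set the size of this median. It was -0.04 without hsfa1abd-2 3 h replicate 2, -0.26 without hsfa1abd-2 3 h replicate 3 and -0.10 without WT 3 h replicate 3. At 24 h the median was -0.16, against -0.0617 over all tested rows. There 119 of the 200 were lower in the mutant, against 56.7% of all tested rows. The 24 h median of the 200 rows lay between -0.20 and -0.11 without any 1 library. The WT side of these values chose the rows, so they are given as a description and carry no test.

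The same conditions with the highest WT level at 0.5 h or at 1 h gave lists of 200 rows each. At their own peak, 195 of the rows peaking at 0.5 h and 198 of those peaking at 1 h were called higher than at 0 h in the mutant, beside the 194 at 3 h. Over all tested rows 14.6% were called higher at 0.5 h, 20% at 1 h and 24% at 3 h. The highest mutant level fell at the same time as in WT in 178 rows of the 0.5 h list and 173 of the 1 h list, beside the 181 here. Of all expressed rows 14.6% were highest at 3 h in the mutant, and the shares highest at 0.5 h and 1 h were not taken. These counts were set side by side without a test of their difference.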

How the data were processed

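RNA was isolated with an RNeasy kit and libraries were made with a Kapa stranded mRNA kit, per the labels' protocols. What the authors deposited is a single table of unnormalized counts for each row and library. The submitters' processing notes name fastp, STAR and TAIR10. No source used here gives versions, the counter, its strand setting or the annotation, so near-identical, overlapping and antisense genes may share reads. Rows carry no identifier, and none was taken from row order.

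Here, CPM used library totals. Tests used edgeR 4.0.16 (R 4.3.3, limma 3.58.1): filterByExpr by group (minimum count 10, minimum total 15), TMM scaling, 1 robust quasi-likelihood model of 10 groups without a replicate block, and Benjamini-Hochberg adjustment per contrast over 18526 rows, which hold 99.8% of counts. An adjusted p under 0.05 made a call. Each approximate SE comes from dividing a log2 fold by the root of its F value. The test was checked on simulated data. DESeq2 1.42.0, RLE scaling, no filter, a replicate block, single libraries left out, the 15 mutant libraries alone, other choices of members, pseudocounts and timing limits were tried as alternatives.

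The members, lists and tests were chosen with earlier results of these data known. Rows given by table position were the 2 most negative and 2 most positive genotype differences in the change to 3 h among members with at least 5 CPM at 3 h in either genotype. Ranks 1 to 3 and the last were also fixed, and other ranks were singled out after their values were seen. Lists of named genes could not be matched to rows. No replicate pair was within sampling noise (chi-square 1.73 to 15.7 per degree of freedom). The labels call replicates biological and name no shared batch. A floor of 3 counts covers counting error only.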

Additional observations from a re-analysis of the deposited data

Results flagged for a closer look

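The change from 0 to 3 h was called different between the genotypes, by the interaction term in edgeR, in 7 of the 200 rows, each with the smaller change in hsfa1abd-2, against 0.221% of all tested rows in that direction. The WT values in this term chose the rows, so the count is a description. Rows 17164 and 35696 had the most negative differences, hsfa1abd-2 minus WT, at -4.22 and -4.13 on the log2 scale. Row 17164 had 2 to 9 counts in each mutant library, and its call was lost in 7 of the refits that left out 1 library, with edgeR adjusted p of 0.0511 to 0.142.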

How the results depend on the processing

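The call that most of the 200 rows were higher at 3 h in hsfa1abd-2 held at 193 or 194 rows with DESeq2, RLE scaling, no filter, the replicate block and the 15 mutant libraries alone, and at 192 to 195 with single libraries left out. Rows chosen again from WT without a library, or by TMM-scaled CPM, shared 171 to 199 of the 200, and 192 to 194 of each list were called higher. The fall between 3 h and 24 h gave 185 to 189 rows in the same refits. The counts that moved by over 1.5 times were small. Rows lower at 1 h were 1 in the 15 mutant libraries alone, and rows lower between 1 h and 3 h were 0 with no filter and 0 with the replicate block. With 1 library left out, rows lower ranged from 3 to 6 at 0.5 h, from 0 to 2 at 1 h and from 0 to 1 between 1 h and 3 h. Splitting early from late rows at a smaller and at a larger share of the rise put the share reached by 1 h in the mutant at 63.5% and 72.2% in early rows and at 16.9% and 39.1% in late rows. Moving the limit moved rows between the classes, with 149 and 77 early rows, so these shares shift by the definition of the classes. Rows with a mutant rise of at least 1.5 numbered 177 with a pseudocount of 0.5 and 136 with 5. Replicate numbers showed no pairing in the mean correlation, which was 0.0011 for libraries of the same number and -0.000515 for others. Of the same-numbered pairs 13 of 135 had a correlation over 0.1, which was not counted for other pairs. Of 30 libraries 14 correlated best with their own number, and pairing between single groups was not tested. With the replicate block 104 rows were higher at 0.5 h, 163 at 1 h and 69 at 24 h, and 6 rows were called for the genotype difference in change. Depth limits rows near 1 CPM, which rest on 2 to 9 counts per mutant library in row 17164.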
